A study of Homo sapiens with 27 samples.

Results

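The 32 genes described here belong to the Fanconi anemia pathway and to homologous recombination. They were chosen by name, a rule that uses no measured value, although earlier results of these data were known when the list was made. All 32 symbols were found among the 26255 gene symbols measured in each of 27 RNA-seq libraries. The libraries came from HCT116, SW480 and DLD-1, which are human colorectal cancer (CRC) cell lines, with 9 libraries per line. Each line was taken as 5-fluorouracil-resistant cells (5-FU res), oxaliplatin-resistant cells (OX res) and untreated cells (WT), with 3 libraries per group. For the resistant cells of all lines, the labels state 5-FU from 5 to 70 µM or OX from 5 to 35 µM, during about 6 months. The methods describe the selection for HCT116 and SW480 alone and name no clone. The DLD-1 libraries carry names from another number range than the rest, so that line and number range cannot be told apart. No source says whether the 3 libraries of a group were separate cultures, so that p-values cover the spread between these libraries alone, and that spread may be technical. Levels are given as TPM (FPKM rescaled so that every library has the same sum), which is scaled by gene length. Changes are log2 fold changes on log2(TPM + 1), each with its standard error after the ± sign. All 32 genes reached a TPM of 1 in 3 or more libraries of every line and were tested there, among 14010 genes in HCT116, 14039 in SW480 and 13467 in DLD-1.

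The Fanconi anemia pathway repairs crosslinks that tie the strands of DNA together. A core complex of FANC proteins, with the ubiquitin ligase FANCL and its partner UBE2T, attaches ubiquitin to the FANCD2 and FANCI pair, and nucleases then cut out the crosslink. The break left behind is mended by homologous recombination, in which ends are trimmed, BRCA1, PALB2 and BRCA2 prepare the end for pairing, and the strand is copied from the sister chromatid. Many of these genes are transcribed mainly in dividing cells, in the S and G2 phases. OX is a platinum drug that crosslinks DNA, whereas 5-FU blocks thymidylate synthesis and enters RNA and DNA.

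Promoter windows of the members whose changes were largest or ran in opposite directions are shown here, since E2F factors and the complexes that bind the CHR word and the CCAAT box are known regulators of cell cycle genes. The windows were read from RefSeq (GRCh38.p14) and run from 160 bases before to 20 after a start site, 5′ to 3′ on the gene's strand. Capitals mark E2F words (TTGGCGC with its variant TTCGCGC, as well as TTCCCGC and the related TTGGCGG), CHR words (TTTGAA or TTCGAA) and the CCAAT box, found on either strand. ATTGG, the CCAAT box read on the other strand, can overlap an E2F word that starts with TTGG, and E2F words can overlap each other. RAD54L (chr1:46247603-46247782, plus strand, the second of its start sites) fell most in HCT116 OX res cells. BLM (chr15:90717186-90717365, plus) rose most in SW480 5-FU res cells. FANCD2 (chr3:10026277-10026456, plus) and UBE2T (chr1:202341917-202342096, minus) fell in HCT116 OX res and rose in DLD-1 OX res cells, whereas FANCF (chr11:22625804-22625983, minus) rose in HCT116 OX res cells, the largest rise of any member in the 6 comparisons of resistant with WT cells.
RAD54L: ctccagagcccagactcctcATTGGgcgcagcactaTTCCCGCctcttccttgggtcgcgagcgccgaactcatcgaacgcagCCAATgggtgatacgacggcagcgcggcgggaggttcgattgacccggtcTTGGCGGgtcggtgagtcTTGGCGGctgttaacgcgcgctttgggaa
BLM: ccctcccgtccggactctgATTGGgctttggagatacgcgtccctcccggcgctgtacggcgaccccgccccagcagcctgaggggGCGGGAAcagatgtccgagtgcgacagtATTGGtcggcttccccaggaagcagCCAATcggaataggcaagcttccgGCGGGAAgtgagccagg
FANCD2: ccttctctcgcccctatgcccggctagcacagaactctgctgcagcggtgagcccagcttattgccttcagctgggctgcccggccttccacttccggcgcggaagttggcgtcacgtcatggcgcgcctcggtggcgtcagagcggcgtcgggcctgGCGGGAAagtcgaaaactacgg
UBE2T: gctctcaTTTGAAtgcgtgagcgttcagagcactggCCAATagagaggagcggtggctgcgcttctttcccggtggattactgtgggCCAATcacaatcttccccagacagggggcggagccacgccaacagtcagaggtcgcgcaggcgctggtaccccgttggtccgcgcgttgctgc
FANCF: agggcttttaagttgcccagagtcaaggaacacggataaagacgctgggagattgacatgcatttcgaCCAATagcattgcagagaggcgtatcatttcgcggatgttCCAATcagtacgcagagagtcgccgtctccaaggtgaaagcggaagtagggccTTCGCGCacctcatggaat

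RefSeq windows from 250 bases before to 50 after the start were found for 29 members, all but FANCI, NBN and RAD54B. An E2F word stood in the windows of 19 of these 29 members (65.5%), against 25.5% of the 11250 tested genes with a window and 13.8% of all 35116 windows. A CHR word stood in 3 of the 29 (10.3%), namely BRIP1, FANCC and UBE2T, against 15.5% of tested genes and 16.4% of all windows. The CCAAT box was in 11 of the 29 (37.9%), against 42.4% of tested genes and 34.6% of all windows. These matches describe letters and not binding.

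Library depth, read from the steps between low FPKM values, ran from 0.721 to 1.13 of that of HCT116 WT replicate 1, and libraries of a group correlated at 0.986 to 0.993 across genes. FPKM sums differed more, from 451767 to 804635, and were lowest in HCT116 OX res and DLD-1 OX res and highest in HCT116 WT and SW480 WT libraries. Across all genes, the median log2 fold change on TPM was 0.60 in HCT116 OX res against WT cells. Median-of-ratios scaling (MoR) sets the middle of all genes near 0, and its value is given beside that on TPM wherever a call was lost, a direction turned or the change moved by over 1.5 times. SW480 WT replicate 2 was the lowest of its group for 29 of the 32 members, and its FPKM sum was the highest of all. Of 10 epithelial markers, EPCAM, KRT8, KRT18 and KRT19 were high in all groups (at least 68.2 TPM on average). CDX1 and LGALS4 averaged at most 6.25 TPM, and KRT20 and VIL1 at most 10.9 TPM. CDX2 averaged from 5.66 TPM in SW480 5-FU res to 193.4 TPM in DLD-1 WT cells. CDH1 averaged from 3.03 TPM in SW480 OX res to 422.2 TPM in DLD-1 WT cells. Marker lists of fibroblasts (6 genes), leukocytes (6) and endothelium (4) summed to at most 17.8, 18.3 and 2.09 TPM in any library, and PTPRC, PECAM1, DCN and COL1A2 stayed at or below 0.223 TPM. HCT116 OX res cells had the highest fibroblast and leukocyte sums, from COL1A1 and HLA-DRA. Epithelial markers did not run one way there, since EPCAM averaged 68.2 TPM in HCT116 OX res cells, against 392.1 TPM in HCT116 WT cells, and KRT19 1523 TPM, against 1194 TPM. The part of these shifts in the members' changes was not tested.

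Across all 27 libraries, UBE2T was the most abundant member (mean 132.4 TPM, 54.7 to 196.5), followed by RAD51C (97.4 TPM, 58.6 to 128.1) and FANCI (69.5 TPM, 13.1 to 125.9). At the low end stood SLX4 (5.97 TPM), FANCB (5.06 TPM) and FANCM (4.50 TPM, 1.70 to 8.92). BRCA2 (6.05 TPM) and BRIP1 (8.09 TPM) also stood near the low end. Single members spanned wide ranges over the libraries, as XRCC2 ran from 1.64 to 28.8 TPM and FANCD2 from 6.91 to 72.0 TPM. The 32 genes lie on 17 chromosomes. In gene models lifted to GRCh37, the build to which the reads were mapped, exons of 13 members face exons of another gene on the opposite strand, and RAD54B shares exons on its own strand with FSBP. Whether strand was used in counting was not given in the sources used here. If it was not used, reads of opposite-strand pairs cannot be told apart. Reads of the exons shared by RAD54B and FSBP cannot be told apart by strand.

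Resistant cells were first compared with WT cells of the same line, to ask whether resistance went with a change in these repair genes. A member was called at a limma adjusted p under 0.05, over all genes tested and with no threshold on the fold. The direction of change depended on the line and the drug. In bulk RNA, fewer cells that express a gene and less RNA per cell cannot be told apart. In HCT116 OX res cells, 15 of 32 members were lower (18.1% of all genes tested were lower) and 10 were higher (68.1%). Their median log2 fold change was -0.12, against 0.60 for all genes, and median-of-ratios scaling gave 20 lower (39.5%), 5 higher (39.5%) and a median of -0.74, against 0.019 for all genes. FANCA, FANCD2, FANCI, UBE2T, RAD54L and BLM all fell there, with log2 fold changes of -1.81 to -1.46. In HCT116 5-FU res cells, 18 members were higher (47.3%) and 7 lower (27.5%), with a median of 0.22 against 0.18 for all genes. Median-of-ratios scaling turned this split to 9 higher (35.6%) and 11 lower (40.3%), with medians of -0.019 and -0.040.

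In SW480 5-FU res cells, 24 members were higher (61.7%) and 2 lower (15.6%), with a median of 0.41, against 0.44 for all genes. Median-of-ratios scaling left 7 higher (34.3%) and 9 lower (35.8%) at a median of -0.067. In SW480 OX res cells, 18 members were higher (57.4%) and 5 lower (14.5%), with a median of 0.34, against 0.36 for all genes. Median-of-ratios scaling gave 9 higher (32.7%) and 15 lower (36.1%), at a median of -0.066. In SW480 the members' medians lay close to those of all genes. BLM, BRIP1, FANCI, FANCM and RAD50 rose in both resistant SW480 groups under both scalings. The 2 lower members in SW480 5-FU res cells, FANCF and FANCL, came down to 1 without any of WT replicates 1 and 3 or 5-FU res replicates 1, 2 and 3. The 5 lower members in SW480 OX res cells became 8 without WT replicate 2.

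DLD-1 split by drug. In DLD-1 5-FU res cells, 20 members were lower (25.9%) and 2 were higher (20.5%), with a median of -0.35, against -0.027 for all genes. In DLD-1 OX res cells, 23 members were higher (38.7%) and 1 was lower (11.2%), with a median of 0.38, against 0.13 for all genes. Median-of-ratios scaling kept both directions, with 20 lower (25.6%) and 2 higher (24.9%) in 5-FU res cells, and, for OX res, 21 members higher (24.3%) and 4 members lower (22%). Of the 32 members, 17 were lower in DLD-1 5-FU res and higher in DLD-1 OX res cells, as were 11.7% of the genes tested in that line. Both comparisons use the same 3 WT libraries.

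Some members passed the test only after median-of-ratios scaling, all of them lower. These were FANCA, FANCD2, FANCI and RAD54B in HCT116 5-FU res cells (-0.38 to -0.20), and FANCC, FANCE, FANCM, BRCA2 and RAD51C in HCT116 OX res cells (-0.75 to -0.45). In SW480 5-FU res cells they were FANCA, FANCE, RAD51C, NBN and MUS81 (-0.44 to -0.25). In SW480 OX res cells they were FANCB, FANCE, FANCF, FANCG, FANCL, RAD51C, RAD54B, RBBP8 and MUS81 (-0.62 to -0.21). DLD-1 OX res cells added FANCF, RAD52 and RAD50 (-0.33 to -0.20), and DLD-1 5-FU res cells none.

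**Figure D1:**
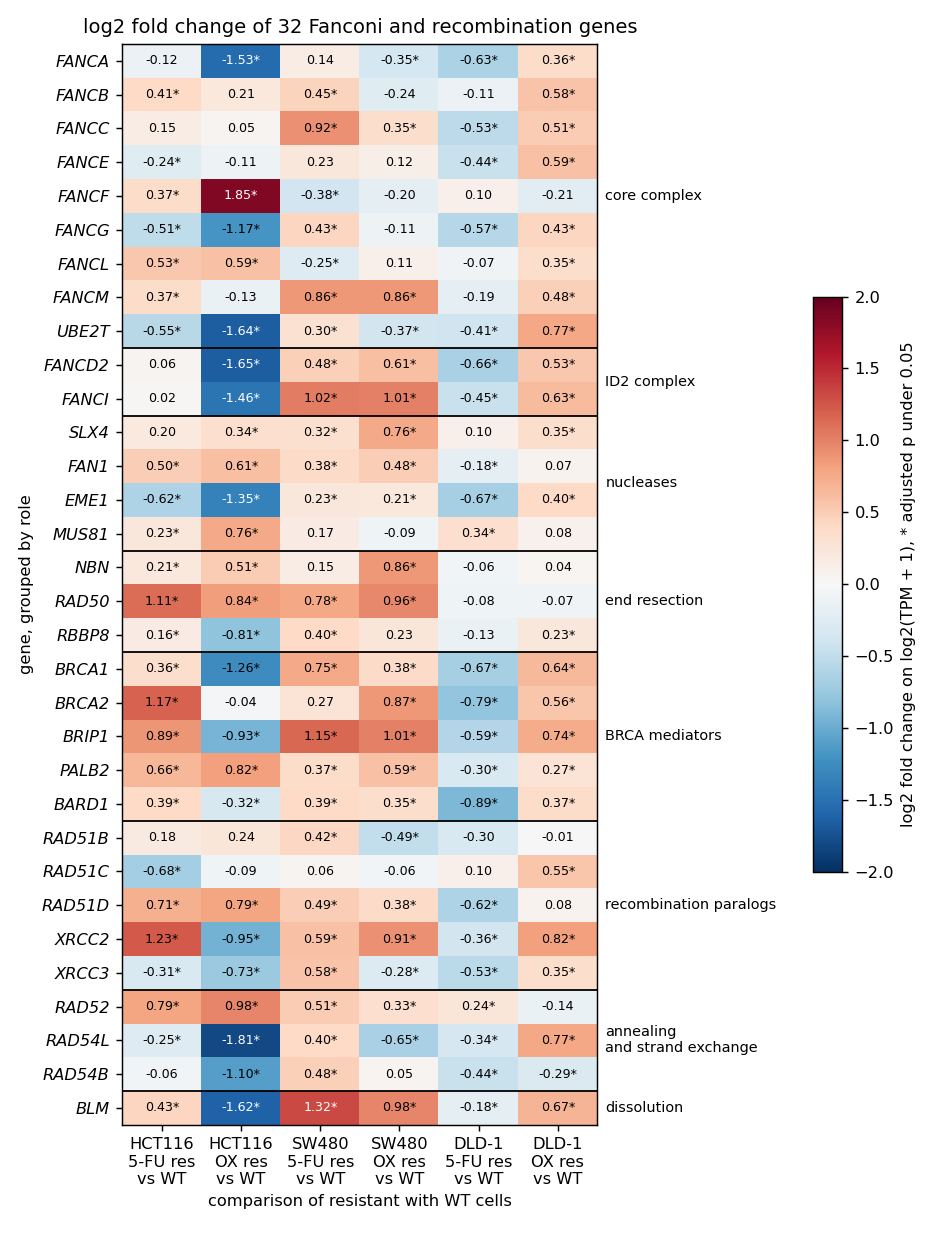
Log2 fold change of each of the 32 members (rows, grouped by role) in 6 comparisons of resistant with WT cells (columns), on log2(TPM + 1), with an asterisk at an adjusted p under 0.05 by limma. Blue cells (lower in resistant cells) gather in HCT116 OX res, with 15 members called lower (18.1% of all genes tested were). They also gather in DLD-1 5-FU res, with 20 called lower (25.9%). DLD-1 OX res is mostly red, with 23 members called higher (38.7%).

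**Figure D2:**
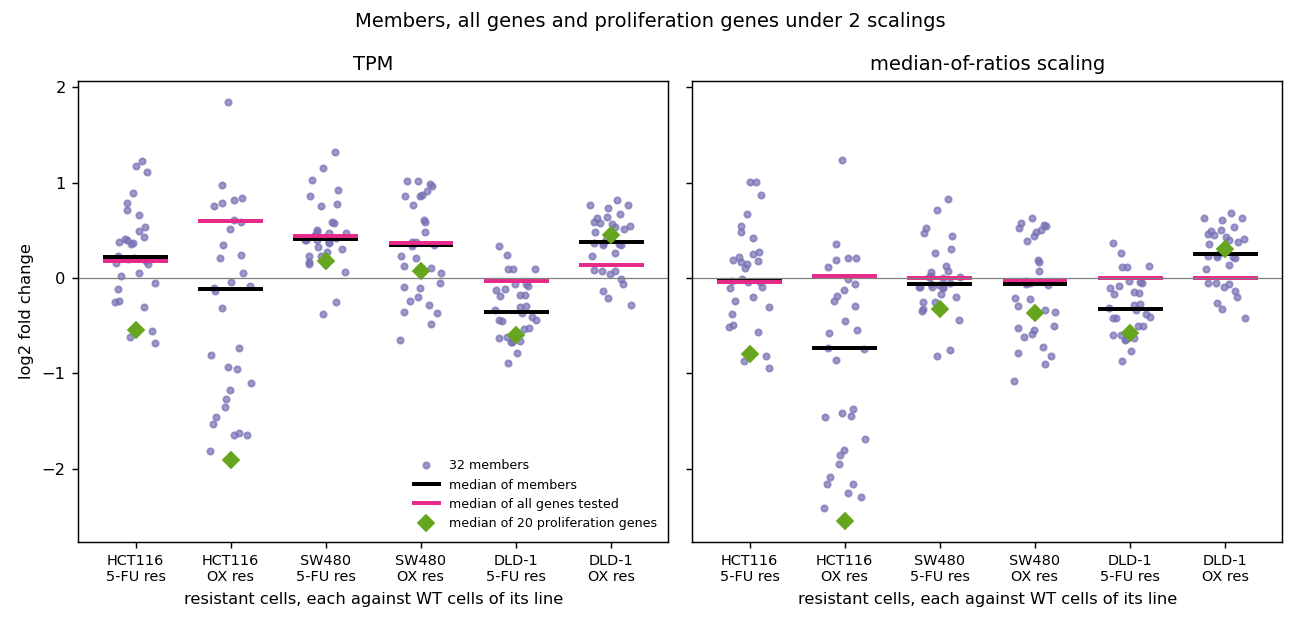
Log2 fold change of each member (points) in resistant against WT cells, on TPM (left) and after median-of-ratios scaling (right), with medians of the members (black), of all genes tested (pink) and of 20 proliferation genes (green). The members' median lay below that of all genes in HCT116 OX res (-0.12 against 0.60 on TPM) and DLD-1 5-FU res cells (-0.35 against -0.027) and above it in DLD-1 OX res cells (0.38 against 0.13), on either scaling.

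Whether the change differed among the 3 lines was tested directly, as the difference between lines of the resistant-minus-WT change in one limma fit over all 27 libraries. For OX, all 32 members differed among lines (84.5% of 15686 genes did), and 30 by median-of-ratios scaling. For 5-FU, 29 members differed (85.3% of genes), and 26 by median-of-ratios scaling. MUS81, NBN and SLX4 were the exceptions for 5-FU, and MUS81 passed it after median-of-ratios scaling (limma adjusted p = 1.36e-05, against 0.324 on TPM). Most genes differed among lines on TPM, and the members' counts on TPM stand against that background. The share of all genes by median-of-ratios scaling is not given here, so the counts of 30 and 26 have no background. In sign, 14 members were higher in 1 line and lower in another for OX (19.1% of the 15686 genes were), 12 of them under both scalings with no call turned (10.8%), and all 14 were lower in HCT116 OX res and higher in DLD-1 OX res cells (8.61% of the 12549 genes tested in both lines). For 5-FU, 20 were so split (27.9%), 11 of them under both scalings (18.3%), and 17 of the 20 were lower in DLD-1 and higher in SW480 (15.3% of the 12571 genes tested in both).

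The core complex, which recognises the crosslink and ubiquitinates the FANCD2 and FANCI pair, is described first. FANCA is a scaffold of this complex. In HCT116 cells, FANCA had 38.6, 35.3 and 36.7 TPM in 5-FU res and 12.2, 12.5 and 15.1 TPM in OX res libraries, against 39.96, 40.3 and 39.9 TPM in WT libraries. SW480 libraries held FANCA at 29.4, 27.95 and 30.3 TPM in 5-FU res cells and at 22.98, 19.8 and 18.5 TPM in OX res cells, with 28.1, 24.7 and 26.2 TPM in WT cells. For FANCA in DLD-1, 5-FU res cells had 22.5, 23.5 and 22.9 TPM and OX res cells 47.8, 46.98 and 44.9 TPM, against 33.4, 38.8 and 35.8 TPM in WT cells. The HCT116 OX res libraries lay far below WT, DLD-1 5-FU res libraries were all below and OX res libraries all above WT, and only SW480 5-FU res libraries overlapped WT. The log2 fold change was -1.53 ± 0.076 in HCT116 OX res cells (limma adjusted p = 2.7e-09), -0.35 ± 0.088 (MoR -0.79) in SW480 OX res cells, -0.63 ± 0.061 in DLD-1 5-FU res cells and 0.36 ± 0.061 (MoR 0.23) in DLD-1 OX res cells. FANCG binds FANCA directly. HCT116 libraries held FANCG at 26.4, 26.9 and 25.2 TPM in 5-FU res cells and at 15.9, 14.7 and 18.1 TPM in OX res cells, with 38.7, 35.4 and 38.99 TPM in WT cells. For FANCG in SW480, 5-FU res cells had 89.3, 88.7 and 84.8 TPM and OX res cells 59.7, 60.2 and 60.1 TPM, against 66.7, 61.9 and 65.4 TPM in WT cells. In DLD-1 cells, FANCG had 33.97, 34.3 and 32.9 TPM in 5-FU res and 68.7, 70.4 and 66.3 TPM in OX res libraries, against 50.05, 48.9 and 53.1 TPM in WT libraries. No resistant group overlapped WT. FANCG changed by -0.51 ± 0.077 (MoR -0.77) and -1.17 ± 0.077 (MoR -1.81) in HCT116 5-FU res and OX res cells and by -0.57 ± 0.05 and 0.43 ± 0.05 in the DLD-1 pair, while its rise of 0.43 ± 0.051 in SW480 5-FU res cells turned to -0.07 by median-of-ratios scaling.

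UBE2T, the ubiquitin-conjugating enzyme that works with FANCL, kept all groups apart. For UBE2T in HCT116, 5-FU res cells had 120, 122.99 and 127 TPM and OX res cells 54.7, 56.1 and 61.7 TPM, against 169.5, 194 and 182 TPM in WT cells. In SW480 cells, UBE2T had 194, 197 and 189 TPM in 5-FU res and 129, 107 and 127 TPM in OX res libraries, against 162, 154 and 154 TPM in WT libraries. DLD-1 libraries held UBE2T at 83.1, 80.7 and 69.96 TPM in 5-FU res cells and at 171, 191 and 169 TPM in OX res cells, with 96.7, 103 and 110.3 TPM in WT cells. No pair of groups within a line overlapped. UBE2T was -1.64 ± 0.06 in HCT116 OX res cells (limma adjusted p = 2.1e-10), -0.55 ± 0.06 in HCT116 5-FU res cells, -0.41 ± 0.074 in DLD-1 5-FU res cells and 0.77 ± 0.074 in DLD-1 OX res cells. In SW480 it was -0.37 ± 0.067 (MoR -0.82) in OX res cells and 0.30 ± 0.067 in 5-FU res cells. Median-of-ratios scaling turned the 5-FU res rise to a called fall (-0.20). FANCL is the ligase itself. The HCT116 levels of FANCL were 41.02, 44.8 and 43.7 TPM in 5-FU res cells, 46.3, 45.1 and 42.9 TPM in OX res cells and 27.9, 30.04 and 30.6 TPM in WT cells. For FANCL in SW480, 5-FU res cells had 38.2, 34.5 and 41.1 TPM and OX res cells 49.2, 47.1 and 50.4 TPM, against 49.6, 41.2 and 45.5 TPM in WT cells. In DLD-1 cells, FANCL had 57.8, 60.6 and 53.9 TPM in 5-FU res and 73.1, 79.8 and 78.1 TPM in OX res libraries, against 61.1, 59.99 and 59.4 TPM in WT libraries. Both HCT116 resistant groups were above WT, SW480 5-FU res libraries were just below WT, and DLD-1 OX res libraries were above it. The log2 fold changes were 0.53 ± 0.059 (MoR 0.28) and 0.59 ± 0.059 (MoR -0.061) in HCT116 5-FU res and OX res cells, -0.25 ± 0.084 (MoR -0.75) in SW480 5-FU res cells and 0.35 ± 0.054 (MoR 0.21) in DLD-1 OX res cells. The SW480 fall did not pass without WT replicate 1 or 5-FU res replicate 2 (-0.19 in either case).

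FANCC and FANCF belong to one arm of the core complex, with FANCE, but did not move together. In HCT116 cells, FANCC had 10.1, 8.86 and 9.69 TPM in 5-FU res and 8.79, 8.67 and 9.12 TPM in OX res libraries, against 8.67, 7.73 and 9.19 TPM in WT libraries. The SW480 levels of FANCC were 27.2, 23.7 and 24.9 TPM in 5-FU res cells, 14.6, 18.5 and 17.1 TPM in OX res cells and 13.6, 12.01 and 13.02 TPM in WT cells. DLD-1 libraries held FANCC at 17.4, 17.6 and 16.4 TPM in 5-FU res cells and at 35.8, 38.7 and 34.3 TPM in OX res cells, with 23.9, 26.8 and 24.7 TPM in WT cells. SW480 and DLD-1 groups did not overlap WT, whereas HCT116 groups did. FANCC rose by 0.92 ± 0.098 (MoR 0.44) in SW480 5-FU res cells (limma adjusted p = 8.4e-06), by 0.35 ± 0.098 (MoR -0.071) in SW480 OX res cells and by 0.51 ± 0.067 in DLD-1 OX res cells, and its log2 fold change was -0.53 ± 0.067 in DLD-1 5-FU res cells. For FANCF in HCT116, 5-FU res cells had 6.45, 7.77 and 7.62 TPM and OX res cells 24.2, 20.4 and 21.6 TPM, against 5.38, 5.49 and 5.31 TPM in WT cells. In SW480 cells, FANCF had 5.06, 6.45 and 4.49 TPM in 5-FU res and 6.8, 5.29 and 6.4 TPM in OX res libraries, against 7.32, 6.57 and 7.67 TPM in WT libraries. The DLD-1 levels of FANCF were 9.97, 11.6 and 9.41 TPM in 5-FU res cells, 7.42, 8.83 and 8.25 TPM in OX res cells and 10.9, 8.93 and 8.92 TPM in WT cells. The HCT116 OX res libraries stood above all 24 others. FANCF rose there by 1.85 ± 0.092 (limma adjusted p = 2.7e-09, 1.24 by median-of-ratios scaling), the largest rise of any member in the 6 comparisons with WT cells. In 5-FU res cells it was 0.37 ± 0.092 (MoR 0.14) for HCT116 and -0.38 ± 0.13 (MoR -0.82) for SW480, and the SW480 call did not pass without WT replicate 3 or 5-FU res replicates 1 or 3 (-0.35 to -0.28). DLD-1 OX res libraries lay below WT with no call on TPM (-0.21 ± 0.10, MoR -0.33). FANCF faces exons of GAS2.

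Of the other core members, FANCE, the bridge to FANCD2, was lower in HCT116 5-FU res (-0.24 ± 0.076, MoR -0.50) and DLD-1 5-FU res cells (-0.44 ± 0.11) and higher in DLD-1 OX res cells (0.59 ± 0.11). FANCB, a partner of FANCL, was higher in DLD-1 OX res cells (0.58 ± 0.10), in HCT116 5-FU res cells (0.41 ± 0.14, MoR 0.22) and in SW480 5-FU res cells (0.45 ± 0.13, MoR 0.013). The HCT116 and SW480 calls of FANCB were lost by median-of-ratios scaling. FANCM, the translocase that brings the complex to stalled forks, rose in SW480 5-FU res (0.86 ± 0.14, MoR 0.47) and SW480 OX res cells (0.86 ± 0.14, MoR 0.52), in DLD-1 OX res cells (0.48 ± 0.12) and in HCT116 5-FU res cells (0.37 ± 0.12, MoR 0.18). Of the 9 core genes, 8 were higher in DLD-1 OX res cells (38.7% of all genes tested were), and 5 were lower in DLD-1 5-FU res cells (25.9%).

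**Figure D3:**
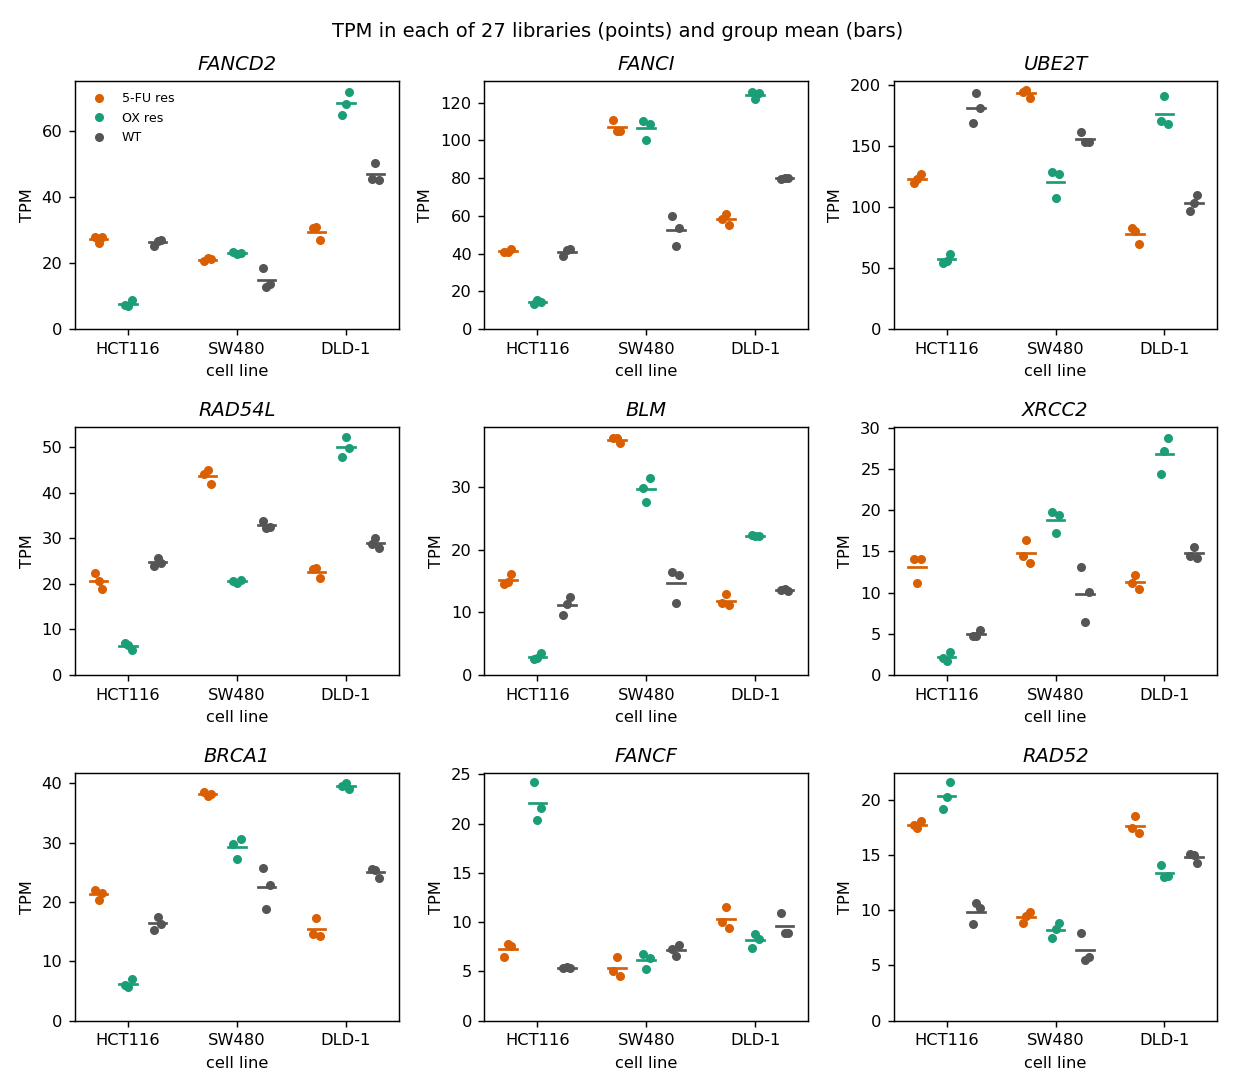
TPM of 9 members in each library (points), with group means (bars), for 5-FU res (orange), OX res (green) and WT (grey) cells of the 3 lines. HCT116 OX res libraries are the lowest of all for FANCD2, FANCI, UBE2T, RAD54L, BLM, XRCC2 and BRCA1 and the highest for FANCF.

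FANCD2 and FANCI form the clamp that is ubiquitinated at a crosslink. In HCT116 cells, FANCD2 had 28.1, 26.3 and 27.97 TPM in 5-FU res and 7.47, 6.91 and 8.9 TPM in OX res libraries, against 25.2, 26.8 and 27.1 TPM in WT libraries. SW480 libraries held FANCD2 at 20.6, 21.5 and 21.2 TPM in 5-FU res cells and at 23.5, 22.9 and 23.1 TPM in OX res cells, with 18.6, 12.9 and 13.6 TPM in WT cells. For FANCD2 in DLD-1, 5-FU res cells had 30.6, 31.00 and 27 TPM and OX res cells 65.1, 68.4 and 72.04 TPM, against 45.6, 50.3 and 45.3 TPM in WT cells. In HCT116 the OX res libraries were far below the other groups, which overlapped each other. The DLD-1 groups were fully apart, with OX res highest and 5-FU res lowest. The change of FANCD2 was -1.65 ± 0.084 in OX res cells of HCT116 (limma adjusted p = 3.5e-09), -0.66 ± 0.067 in DLD-1 5-FU res and 0.53 ± 0.067 in DLD-1 OX res cells. SW480 gave 0.48 ± 0.11 (MoR -0.0041) in 5-FU res and 0.61 ± 0.11 (MoR 0.18) in OX res cells, and neither passed after median-of-ratios scaling. The HCT116 levels of FANCI were 41.1, 40.8 and 42.7 TPM in 5-FU res cells, 13.1, 15.4 and 14.4 TPM in OX res cells and 38.6, 42.1 and 42.5 TPM in WT cells. In SW480 cells, FANCI had 111, 105 and 105 TPM in 5-FU res and 110.2, 100.4 and 109 TPM in OX res libraries, against 59.8, 44.2 and 53.5 TPM in WT libraries. DLD-1 libraries held FANCI at 58.3, 61.1 and 55.4 TPM in 5-FU res cells and at 126, 122 and 125 TPM in OX res cells, with 79.4, 80.2 and 80.04 TPM in WT cells. FANCI had the same order as its partner in HCT116 and DLD-1, and in SW480 both resistant groups were about at the same level and well above WT. FANCI changed by -1.46 ± 0.068 in OX res cells of HCT116. In SW480 the changes were 1.02 ± 0.093 (MoR 0.52) for 5-FU res and 1.01 ± 0.093 (MoR 0.57) for OX res, and in DLD-1 -0.45 ± 0.046 for 5-FU res and 0.63 ± 0.046 for OX res cells, all with the same sign after median-of-ratios scaling. FANCD2 has partial pseudogene copies, and how reads were shared between them was not given in the sources used here.

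Among the nucleases, EME1 and MUS81 form one endonuclease for branched DNA but did not change alike. HCT116 libraries held EME1 at 12.3, 10.3 and 12.8 TPM in 5-FU res cells and at 7.15, 6.09 and 6.84 TPM in OX res cells, with 18.5, 18.8 and 18.6 TPM in WT cells. For EME1 in SW480, 5-FU res cells had 22.6, 20.8 and 20.7 TPM and OX res cells 20.9, 19.6 and 22.7 TPM, against 18.6, 17.02 and 18.6 TPM in WT cells. In DLD-1 cells, EME1 had 8.79, 9.71 and 9.52 TPM in 5-FU res and 21.2, 22.6 and 18.3 TPM in OX res libraries, against 16.1, 13.6 and 16.8 TPM in WT libraries. Both resistant HCT116 groups were below WT and OX res was lowest, while in DLD-1 5-FU res was below and OX res above WT. EME1 was -0.62 ± 0.091 and -1.35 ± 0.091 in HCT116 5-FU res and OX res cells and -0.67 ± 0.095 and 0.40 ± 0.095 (MoR 0.26) in DLD-1 5-FU res and OX res cells. In SW480 its small rises on TPM were called as falls after median-of-ratios scaling. The values were 0.23 ± 0.08 (MoR -0.25) in 5-FU res and 0.21 ± 0.08 (MoR -0.22) in OX res cells. The SW480 5-FU res call did not pass without 5-FU res replicate 1 (0.19), nor the SW480 OX res call without WT replicates 2 or 3 or OX res replicates 1 or 3 (0.16 to 0.23). The HCT116 levels of MUS81 were 31.8, 29.1 and 28.4 TPM in 5-FU res cells, 47.02, 39.1 and 44.5 TPM in OX res cells and 27.4, 24.9 and 23.6 TPM in WT cells. In SW480 cells, MUS81 had 37.8, 35.7 and 36.1 TPM in 5-FU res and 28.8, 31.4 and 30.8 TPM in OX res libraries, against 33.98, 29.3 and 33.8 TPM in WT libraries. For MUS81 in DLD-1, 5-FU res cells had 41.9, 49.8 and 46.7 TPM and OX res cells 40.3, 38.6 and 36.6 TPM, against 35.9, 35.1 and 37.8 TPM in WT cells. Both resistant HCT116 groups were above WT, and DLD-1 5-FU res libraries were above both other DLD-1 groups. MUS81 was 0.76 ± 0.08 (MoR 0.11) in HCT116 OX res cells, 0.23 ± 0.08 (MoR -0.03) in HCT116 5-FU res cells and 0.34 ± 0.067 in DLD-1 5-FU res cells, where it had the largest rise of the members. MUS81 lies opposite exons of CFL1 and EFEMP2, and EME1 opposite LRRC59.

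FAN1, a nuclease that binds ubiquitinated FANCD2, was higher in 4 groups on TPM. In HCT116 cells, FAN1 had 14.4, 14.2 and 16.1 TPM in 5-FU res and 15.2, 14.9 and 18.7 TPM in OX res libraries, against 9.58, 10.7 and 10.5 TPM in WT libraries. The SW480 levels of FAN1 were 14.7, 15.6 and 13.5 TPM in 5-FU res cells, 16.2, 14.9 and 16.2 TPM in OX res cells and 12.9, 9.01 and 11.3 TPM in WT cells. DLD-1 libraries held FAN1 at 21.9, 21.8 and 20.3 TPM in 5-FU res cells and at 25.5, 27.2 and 24.1 TPM in OX res cells, with 24.6, 25.3 and 22.9 TPM in WT cells. HCT116 and SW480 resistant libraries were all above WT, and DLD-1 5-FU res libraries were all just below. The log2 fold changes were 0.50 ± 0.095 (MoR 0.25) and 0.61 ± 0.095 (MoR -0.0084) in HCT116 5-FU res and OX res, 0.38 ± 0.12 (MoR -0.091) and 0.48 ± 0.12 (MoR 0.068) in SW480 5-FU res and OX res, and -0.18 ± 0.066 in DLD-1 5-FU res cells. After median-of-ratios scaling only the HCT116 5-FU res (0.25) and DLD-1 5-FU res (-0.15) changes passed. The DLD-1 call (limma adjusted p = 0.046) did not pass without WT replicates 1 or 2, any 5-FU res replicate or OX res replicate 1 (-0.19 to -0.14). SLX4, the scaffold that holds these nucleases, was higher in SW480 OX res (0.76 ± 0.086, MoR 0.39) and DLD-1 OX res cells (0.35 ± 0.078, MoR 0.22), and its other calls, HCT116 OX res (0.34 ± 0.10, MoR -0.19) and SW480 5-FU res (0.32 ± 0.086, MoR -0.092), were lost with the scaling.

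RBBP8, known as CtIP, starts the trimming of DNA ends with the complex of MRE11, RAD50 and NBN. For RBBP8 in HCT116, 5-FU res cells had 54.3, 56.5 and 56.1 TPM and OX res cells 26.8, 28.8 and 28.3 TPM, against 47.1, 49.8 and 52.7 TPM in WT cells. SW480 libraries held RBBP8 at 54.5, 60.97 and 55.9 TPM in 5-FU res cells and at 54.3, 44.9 and 53.7 TPM in OX res cells, with 49.3, 36.8 and 43.9 TPM in WT cells. In DLD-1 cells, RBBP8 had 46.1, 47.1 and 40.4 TPM in 5-FU res and 55.2, 58.7 and 57.6 TPM in OX res libraries, against 48.5, 50.3 and 47.2 TPM in WT libraries. HCT116 OX res libraries were all below WT, and only SW480 OX res libraries overlapped it. RBBP8 was -0.81 ± 0.056 (MoR -1.46) in HCT116 OX res cells (limma adjusted p = 4.9e-08) and 0.23 ± 0.061 (MoR 0.091) in DLD-1 OX res cells. Its rises in HCT116 5-FU res (0.16 ± 0.056, MoR -0.10) and SW480 5-FU res cells (0.40 ± 0.11, MoR -0.099) reversed in sign. RAD50, which clamps the ends together, was higher in all 4 resistant groups of HCT116 and SW480, called under both scalings. The changes in HCT116 were 1.11 ± 0.093 for 5-FU res and 0.84 ± 0.093 (MoR 0.21) for OX res, and in SW480 0.78 ± 0.12 (MoR 0.30) for 5-FU res and 0.96 ± 0.12 (MoR 0.54) for OX res cells. DLD-1 gave no call for RAD50 on TPM (-0.081 ± 0.071 in 5-FU res and -0.068 ± 0.071, MoR -0.20 in OX res cells). NBN rose in SW480 OX res cells (0.86 ± 0.14, MoR 0.44), whereas its HCT116 values of 0.21 ± 0.087 (MoR -0.046) in 5-FU res and 0.51 ± 0.087 (MoR -0.13) in OX res cells changed sign with the scaling.

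BRCA1 and BARD1 form a ubiquitin ligase that acts at broken ends. HCT116 libraries held BRCA1 at 22.02, 20.4 and 21.4 TPM in 5-FU res cells and at 5.96, 5.71 and 7.1 TPM in OX res cells, with 15.3, 17.5 and 16.4 TPM in WT cells. In SW480 cells, BRCA1 had 38.5, 37.9 and 38.2 TPM in 5-FU res and 29.8, 27.3 and 30.7 TPM in OX res libraries, against 25.8, 18.7 and 22.8 TPM in WT libraries. The DLD-1 levels of BRCA1 were 14.6, 17.2 and 14.4 TPM in 5-FU res cells, 39.5, 40.1 and 39.00 TPM in OX res cells and 25.6, 25.4 and 24.02 TPM in WT cells. No resistant group overlapped WT in any line. HCT116 OX res was far below and DLD-1 5-FU res below WT, with all other groups above. BRCA1 had log2 fold changes of -1.26 ± 0.088 in HCT116 OX res (limma adjusted p = 4.9e-08), -0.67 ± 0.07 in DLD-1 5-FU res, 0.64 ± 0.07 in DLD-1 OX res and 0.75 ± 0.10 (MoR 0.26) in SW480 5-FU res cells. Its smaller rises in HCT116 5-FU res (0.36 ± 0.088, MoR 0.11) and SW480 OX res cells (0.38 ± 0.10, MoR -0.055) were lost with the scaling, the second with a change of sign. For BARD1 in HCT116, 5-FU res cells had 6.97, 7.13 and 8.06 TPM and OX res cells 3.76, 4.12 and 4.49 TPM, against 5.52, 5.02 and 5.59 TPM in WT cells. SW480 libraries held BARD1 at 11.3, 11.3 and 10.02 TPM in 5-FU res cells and at 11.2, 10.1 and 10.3 TPM in OX res cells, with 8.67, 6.84 and 8.62 TPM in WT cells. In DLD-1 cells, BARD1 had 5.42, 5.3 and 4.6 TPM in 5-FU res and 12.3, 15.2 and 13.3 TPM in OX res libraries, against 10.4, 11.1 and 9.53 TPM in WT libraries. BARD1 groups were again all apart from WT, with DLD-1 5-FU res and HCT116 OX res libraries below it. BARD1 was -0.89 ± 0.097 in DLD-1 5-FU res cells, the largest fall of a member there, 0.37 ± 0.097 (MoR 0.24) in DLD-1 OX res and -0.32 ± 0.097 (MoR -0.86) in HCT116 OX res cells. Its other calls were 0.39 ± 0.097 (MoR 0.17) in HCT116 5-FU res, 0.39 ± 0.11 (MoR -0.064) in SW480 5-FU res and 0.35 ± 0.11 (MoR -0.051) in SW480 OX res cells.

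BRCA2 acts on the single-stranded DNA of a trimmed end, and PALB2 joins it to BRCA1. In HCT116 cells, BRCA2 had 5.76, 4.05 and 5.14 TPM in 5-FU res and 1.58, 1.25 and 1.87 TPM in OX res libraries, against 1.43, 1.6 and 1.89 TPM in WT libraries. The SW480 levels of BRCA2 were 6.55, 7.15 and 6.25 TPM in 5-FU res cells, 11.1, 9.61 and 11.2 TPM in OX res cells and 7.2, 3.67 and 5.67 TPM in WT cells. DLD-1 libraries held BRCA2 at 3.73, 4.57 and 3.78 TPM in 5-FU res cells and at 11.01, 13.04 and 11.4 TPM in OX res cells, with 7.09, 7.98 and 7.91 TPM in WT cells. HCT116 5-FU res libraries were all above the other HCT116 groups, which overlapped, and SW480 OX res libraries were above both other SW480 groups. BRCA2 rose by 1.17 ± 0.14 in HCT116 5-FU res (limma adjusted p = 1e-05), by 0.87 ± 0.17 (MoR 0.48) in SW480 OX res and by 0.56 ± 0.099 in DLD-1 OX res cells, and was -0.79 ± 0.099 in DLD-1 5-FU res cells. The HCT116 levels of PALB2 were 14.4, 12.97 and 14.9 TPM in 5-FU res cells, 16.7, 15.4 and 15.4 TPM in OX res cells and 7.68, 9.2 and 8.77 TPM in WT cells. For PALB2 in SW480, 5-FU res cells had 12.4, 15.8 and 13.1 TPM and OX res cells 16.03, 14.8 and 17.7 TPM, against 12.03, 8.49 and 10.97 TPM in WT cells. In DLD-1 cells, PALB2 had 9.81, 10.8 and 8.88 TPM in 5-FU res and 14.3, 13.8 and 17.1 TPM in OX res libraries, against 11.4, 13.7 and 11.9 TPM in WT libraries. On TPM, PALB2 was called in all 6 comparisons and was higher in 5 of them, and no resistant group overlapped WT. The HCT116 rises, 0.66 ± 0.086 (MoR 0.42) for 5-FU res and 0.82 ± 0.086 (MoR 0.21) for OX res, were called under both scalings. The SW480 values were 0.37 ± 0.13 (MoR -0.10) in 5-FU res and 0.59 ± 0.13 (MoR 0.17) in OX res cells, and the DLD-1 values -0.30 ± 0.10 in 5-FU res and 0.27 ± 0.10 (MoR 0.14) in OX res cells. The SW480 5-FU res call did not pass without WT replicate 2 or 5-FU res replicate 2 (0.24 to 0.27). Nor did the DLD-1 5-FU res call without WT replicate 2 or 5-FU res replicates 1 or 3 (-0.30 to -0.23). The DLD-1 OX res call did not pass without WT replicates 1 or 3, 5-FU res replicate 1 or OX res replicates 1 or 3 (0.18 to 0.30).

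BRIP1 is a helicase that binds BRCA1. HCT116 libraries held BRIP1 at 10.1, 9.35 and 9.63 TPM in 5-FU res cells and at 1.76, 2.12 and 2.23 TPM in OX res cells, with 4.35, 5.11 and 4.87 TPM in WT cells. In SW480 cells, BRIP1 had 12.8, 13.1 and 11.8 TPM in 5-FU res and 11.7, 10.3 and 12.1 TPM in OX res libraries, against 6.23, 3.74 and 5.6 TPM in WT libraries. For BRIP1 in DLD-1, 5-FU res cells had 5.51, 4.84 and 4.7 TPM and OX res cells 13.2, 15.1 and 13.97 TPM, against 6.98, 8.95 and 8.36 TPM in WT cells. Every resistant group was apart from WT, and in HCT116 the 5-FU res libraries were above and the OX res libraries below it. BRIP1 changed in HCT116 by 0.89 ± 0.10 for 5-FU res and -0.93 ± 0.10 (MoR -1.42) for OX res. The changes were 1.15 ± 0.15 (MoR 0.71) for 5-FU res and 1.01 ± 0.15 (MoR 0.63) for OX res in SW480, and -0.59 ± 0.10 for 5-FU res and 0.74 ± 0.10 for OX res in DLD-1. All 6 were called, with the same sign under both scalings. On TPM, BRCA1, BARD1, PALB2, BRCA2 and BRIP1 were all higher in HCT116 5-FU res, SW480 OX res and DLD-1 OX res cells. Of all genes tested, 47.3%, 57.4% and 38.7% were higher in these groups. Median-of-ratios scaling left 3, 2 and 4 of the 5 called, against 35.6%, 32.7% and 24.3% of all genes. BRCA1 and BARD1 turned in sign in SW480 OX res cells. All 5 were lower in DLD-1 5-FU res cells under both scalings (25.9% and 25.6% of all genes were).

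RAD51B, RAD51C, RAD51D, XRCC2 and XRCC3 are paralogs that aid recombination. XRCC2 works with RAD51B, RAD51C and RAD51D. In HCT116 cells, XRCC2 had 14.1, 11.1 and 14.1 TPM in 5-FU res and 2.01, 1.64 and 2.74 TPM in OX res libraries, against 4.74, 4.75 and 5.5 TPM in WT libraries. For XRCC2 in SW480, 5-FU res cells had 14.5, 16.4 and 13.6 TPM and OX res cells 19.8, 17.2 and 19.4 TPM, against 13.1, 6.4 and 10.1 TPM in WT cells. DLD-1 libraries held XRCC2 at 11.2, 12.2 and 10.4 TPM in 5-FU res cells and at 24.4, 27.2 and 28.8 TPM in OX res cells, with 14.5, 15.6 and 14.2 TPM in WT cells. HCT116 5-FU res libraries stood above WT and OX res libraries below it, while SW480 WT libraries were widely spread. XRCC2 rose by 1.23 ± 0.14 in HCT116 5-FU res cells (limma adjusted p = 6.4e-06), the members' largest rise there on log2(TPM + 1). In mean TPM, BRCA2 rose there by a larger factor (1.64 to 4.98 TPM) than XRCC2 (5.00 to 13.1 TPM). XRCC2 also rose by 0.82 ± 0.08 in DLD-1 OX res cells. It was -0.95 ± 0.14 (MoR -1.44) in HCT116 OX res, -0.36 ± 0.08 in DLD-1 5-FU res, 0.91 ± 0.19 (MoR 0.50) in SW480 OX res and 0.59 ± 0.19 (MoR 0.12) in SW480 5-FU res cells. The last call did not pass without 5-FU res replicate 2 (0.52). The HCT116 levels of RAD51C were 67.7, 75.04 and 73.97 TPM in 5-FU res cells, 111, 116 and 102 TPM in OX res cells and 112, 125 and 113 TPM in WT cells. In SW480 cells, RAD51C had 125, 128 and 121 TPM in 5-FU res and 119, 112 and 114 TPM in OX res libraries, against 123.1, 121 and 116 TPM in WT libraries. For RAD51C in DLD-1, 5-FU res cells had 62.02, 71.7 and 64.6 TPM and OX res cells 89.8, 90.04 and 91.9 TPM, against 67.4, 58.6 and 58.9 TPM in WT cells. RAD51C, shared by both paralog complexes, was low in HCT116 5-FU res and high in DLD-1 OX res libraries, with overlap between resistant and WT libraries elsewhere. Its log2 fold change was -0.68 ± 0.063 in HCT116 5-FU res, the largest fall of a member there, and 0.55 ± 0.065 in DLD-1 OX res cells.

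XRCC3, the partner of RAD51C in the smaller complex, comes next. For XRCC3 in HCT116, 5-FU res cells had 25.5, 24.3 and 25.2 TPM and OX res cells 17.5, 16.7 and 21.1 TPM, against 32.3, 30.1 and 31.2 TPM in WT cells. SW480 libraries held XRCC3 at 71.5, 69.9 and 73.01 TPM in 5-FU res cells and at 37.99, 40.7 and 38.5 TPM in OX res cells, with 46.96, 47.7 and 48.2 TPM in WT cells. In DLD-1 cells, XRCC3 had 24.4, 22.3 and 21.2 TPM in 5-FU res and 41.3, 44.8 and 41.6 TPM in OX res libraries, against 33.9, 33.6 and 31.9 TPM in WT libraries. All resistant groups were apart from WT. XRCC3 was -0.31 ± 0.08 (MoR -0.57) and -0.73 ± 0.08 (MoR -1.37) in HCT116 5-FU res and OX res, 0.58 ± 0.053 (MoR 0.075) and -0.28 ± 0.053 (MoR -0.72) in SW480 5-FU res and OX res, and -0.53 ± 0.064 and 0.35 ± 0.064 (MoR 0.22) in DLD-1 5-FU res and OX res cells. RAD51D, which sits with XRCC2 in the other complex, is next. HCT116 libraries held RAD51D at 12.2, 12.6 and 11.2 TPM in 5-FU res cells and at 13.2, 11.5 and 13.6 TPM in OX res cells, with 7.01, 6.68 and 7.11 TPM in WT cells. The SW480 levels of RAD51D were 13.6, 14.9 and 16.5 TPM in 5-FU res cells, 12.96, 13.2 and 15.5 TPM in OX res cells and 10.9, 9.77 and 10.6 TPM in WT cells. For RAD51D in DLD-1, 5-FU res cells had 10.9, 12.3 and 11.1 TPM and OX res cells 20.3, 17.8 and 19.4 TPM, against 18.6, 17.7 and 18.1 TPM in WT cells. HCT116 and SW480 resistant libraries were all above WT, and DLD-1 5-FU res libraries all below. RAD51D changed by 0.71 ± 0.085 for 5-FU res and 0.79 ± 0.085 (MoR 0.19) for OX res in HCT116, and by -0.62 ± 0.072 for 5-FU res in DLD-1, called under both scalings. Its SW480 rises, 0.49 ± 0.10 (MoR 0.016) in 5-FU res and 0.38 ± 0.10 (MoR -0.035) in OX res cells, were not. RAD51B was higher in SW480 5-FU res (0.42 ± 0.12, MoR -0.055) and lower in SW480 OX res cells (-0.49 ± 0.12, MoR -0.90), with no call in the other lines.

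RAD52, which anneals complementary strands, is described next. In HCT116 cells, RAD52 had 17.7, 17.4 and 18.02 TPM in 5-FU res and 19.2, 20.2 and 21.6 TPM in OX res libraries, against 8.72, 10.6 and 10.2 TPM in WT libraries. SW480 libraries held RAD52 at 8.85, 9.5 and 9.85 TPM in 5-FU res cells and at 7.47, 8.3 and 8.88 TPM in OX res cells, with 7.96, 5.46 and 5.73 TPM in WT cells. The DLD-1 levels of RAD52 were 17.4, 18.5 and 16.9 TPM in 5-FU res cells, 14.1, 13.00 and 13.1 TPM in OX res cells and 15.1, 14.99 and 14.3 TPM in WT cells. Resistant HCT116 libraries were far above WT, and DLD-1 5-FU res libraries were above and OX res libraries below WT. RAD52 was higher in 5 comparisons: 0.79 ± 0.082 and 0.98 ± 0.082 (MoR 0.36) in HCT116 5-FU res and OX res (limma adjusted p = 2.7e-07 for OX res), 0.24 ± 0.066 in DLD-1 5-FU res, and, lost by median-of-ratios scaling, 0.51 ± 0.13 (MoR 0.06) and 0.33 ± 0.13 (MoR -0.061) in SW480 5-FU res and OX res cells. The SW480 OX res call did not pass without WT replicates 2 or 3, any 5-FU res replicate or OX res replicates 2 or 3 (0.24 to 0.33). RAD54L is a motor protein that promotes strand exchange. The HCT116 levels of RAD54L were 22.4, 20.6 and 18.8 TPM in 5-FU res cells, 7.07, 6.49 and 5.47 TPM in OX res cells and 23.8, 25.7 and 24.5 TPM in WT cells. For RAD54L in SW480, 5-FU res cells had 44.1, 44.9 and 41.9 TPM and OX res cells 20.6, 20.3 and 20.9 TPM, against 33.8, 32.3 and 32.4 TPM in WT cells. In DLD-1 cells, RAD54L had 23.2, 23.5 and 21.2 TPM in 5-FU res and 47.9, 52.1 and 49.8 TPM in OX res libraries, against 28.7, 30.1 and 27.96 TPM in WT libraries. HCT116 and SW480 OX res libraries were far below WT, and DLD-1 OX res libraries far above. RAD54L had log2 fold changes of -1.81 ± 0.093 in HCT116 OX res (limma adjusted p = 3.7e-09), -0.65 ± 0.06 (MoR -1.08) in SW480 OX res and 0.77 ± 0.06 in DLD-1 OX res cells. For 5-FU res cells they were -0.25 ± 0.093 (MoR -0.51) in HCT116, 0.40 ± 0.06 (MoR -0.096) in SW480 and -0.34 ± 0.06 in DLD-1, and the HCT116 value did not pass without WT replicates 2 or 3 or 5-FU res replicates 2 or 3 (-0.26 to -0.19).

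RAD54B is a related motor. HCT116 libraries held RAD54B at 13.3, 11.5 and 14.1 TPM in 5-FU res cells and at 4.48, 6.65 and 6.31 TPM in OX res cells, with 12.7, 13.7 and 13.9 TPM in WT cells. In SW480 cells, RAD54B had 14.97, 14.3 and 12.4 TPM in 5-FU res and 11.2, 9.37 and 9.73 TPM in OX res libraries, against 11.8, 8.11 and 9.5 TPM in WT libraries. For RAD54B in DLD-1, 5-FU res cells had 16.2, 18.2 and 16.4 TPM and OX res cells 19.1, 18.3 and 19.3 TPM, against 23.9, 21.8 and 24.2 TPM in WT cells. HCT116 OX res libraries and both DLD-1 resistant groups were below WT. RAD54B was -1.10 ± 0.12 (MoR -1.69) in HCT116 OX res, -0.44 ± 0.068 in DLD-1 5-FU res and -0.29 ± 0.068 in DLD-1 OX res cells, where it had the only called fall of a member on TPM, and 0.48 ± 0.13 (MoR 0.0088) in SW480 5-FU res cells. BLM, the helicase that takes apart joined recombination intermediates, had the widest span of changes of the members. For BLM in HCT116, 5-FU res cells had 14.6, 14.9 and 16.2 TPM and OX res cells 2.55, 2.73 and 3.52 TPM, against 9.55, 11.3 and 12.5 TPM in WT cells. SW480 libraries held BLM at 37.9, 37.9 and 37.2 TPM in 5-FU res cells and at 29.9, 27.6 and 31.6 TPM in OX res cells, with 16.5, 11.6 and 16.02 TPM in WT cells. The DLD-1 levels of BLM were 11.5, 12.9 and 11.2 TPM in 5-FU res cells, 22.4, 22.2 and 22.2 TPM in OX res cells and 13.6, 13.8 and 13.5 TPM in WT cells. HCT116 OX res libraries were the lowest of all, SW480 5-FU res libraries the highest, and no resistant group overlapped WT. BLM was -1.62 ± 0.12 in HCT116 OX res (limma adjusted p = 6.3e-08), 1.32 ± 0.12 (MoR 0.83) and 0.98 ± 0.12 (MoR 0.56) in SW480 5-FU res and OX res, and 0.67 ± 0.067 in DLD-1 OX res cells. It was 0.43 ± 0.12 (MoR 0.18) in HCT116 5-FU res cells. The DLD-1 5-FU res value of -0.18 ± 0.067 did not pass when any library of that line other than 5-FU res replicate 2 was left out (-0.19 to -0.15).

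The resistant groups of each line were then compared with each other. In HCT116, 18 members were higher in 5-FU res than in OX res cells (20.4% of all genes were) and 4 were lower (56.7%), with a median of 0.46, against -0.34 for all genes. Median-of-ratios scaling gave 26 higher (38.5%) and 1 lower (36.0%), which was FANCF. In DLD-1, 3 members were higher in 5-FU res cells (18.3%) and 25 lower (44.6%), with a median of -0.78, against -0.16 for all genes, and median-of-ratios scaling gave 4 higher (30.8%) and 23 lower (32%). In SW480 the split was 12 higher (34.3%) and 4 lower (27.3%), or 12 (31.6%) and 6 (32.6%) by median-of-ratios scaling. XRCC2 had the largest difference in HCT116, at 2.18 ± 0.14, followed by BLM at 2.05 ± 0.12 and BRIP1 at 1.82 ± 0.10. In DLD-1 the largest were BRCA2 at -1.35 ± 0.099, BRIP1 at -1.33 ± 0.10 and BRCA1 at -1.31 ± 0.07, all lower in 5-FU res cells. In SW480, RAD54L was higher in 5-FU res cells by 1.05 ± 0.06 and NBN was lower, at -0.71 ± 0.14. RAD52 and MUS81 were the members higher in DLD-1 5-FU res cells besides FANCF, at 0.37 ± 0.066, 0.25 ± 0.067 (MoR 0.42) and 0.30 ± 0.10.

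**Figure D4:**
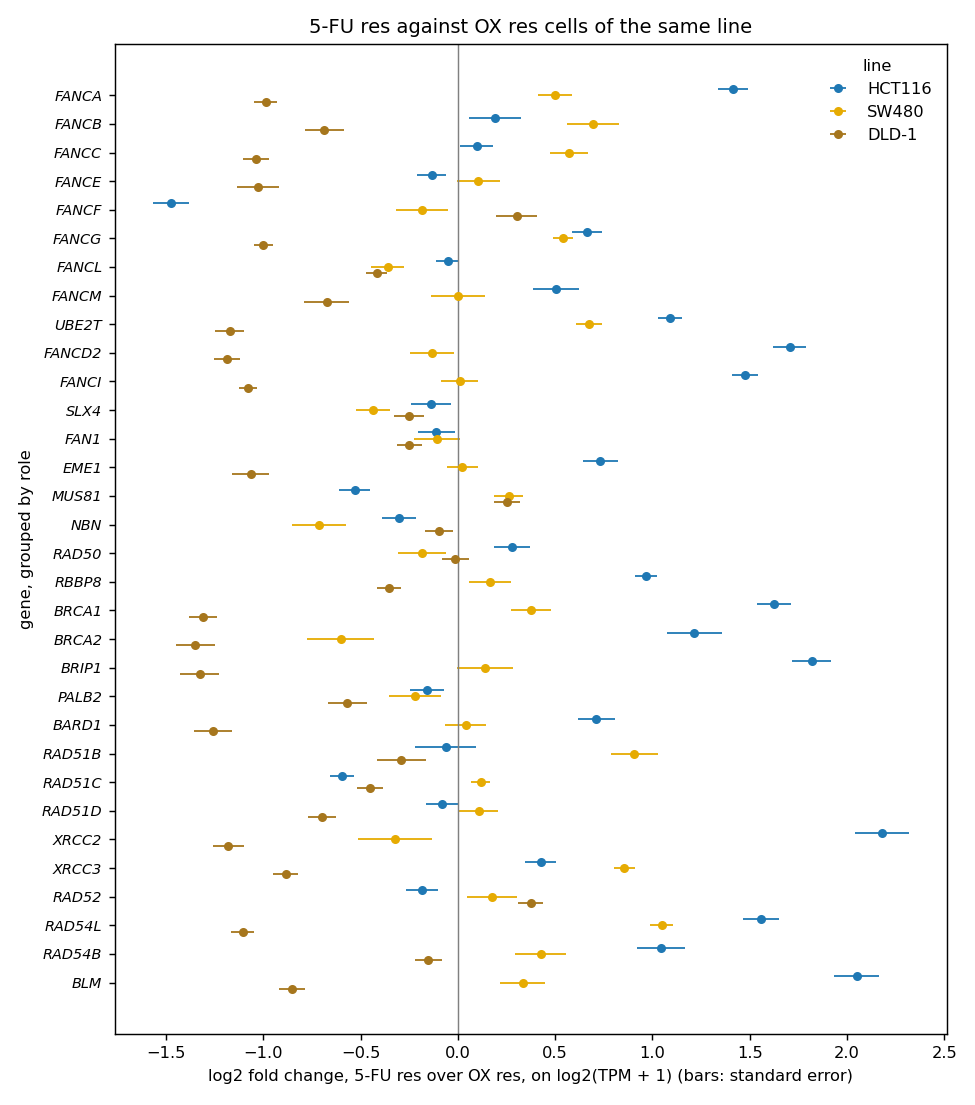
Log2 fold change of 5-FU res over OX res cells on log2(TPM + 1) for each member in HCT116 (blue), SW480 (yellow) and DLD-1 (brown), with bars of 1 standard error. Most HCT116 points lie right of 0 (18 members called higher in 5-FU res cells, as were 20.4% of all genes tested). Most DLD-1 points lie left of 0 (25 members called lower, as were 44.6%).

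Between untreated lines, HCT116 WT cells had 17 members lower (37.5% of 15686 genes were) and 8 higher (38.1%) than SW480 WT cells, or 18 lower (40.2%) and 8 higher (37.9%) by median-of-ratios scaling. With a replicate block, 4 were higher in place of 8. They had 25 lower (53.5%) and 4 higher (25.9%) than DLD-1 WT cells, with a median of -0.73, against -0.31 for all genes. Median-of-ratios scaling left 19 lower (38.9%) and 8 higher (41.1%) in the second comparison. SW480 WT against DLD-1 WT cells gave 18 lower (54.1%) and 6 higher (27.3%), a split that turned to 10 lower (38.4%) and 14 higher (42.5%) by median-of-ratios scaling. BRCA2 had the largest difference between HCT116 WT and DLD-1 WT cells (-1.72 ± 0.15), at 1.43, 1.6 and 1.89 TPM in HCT116 WT, against 7.09, 7.98 and 7.91 TPM in DLD-1 WT libraries. RAD51C was higher in HCT116 WT than in DLD-1 WT cells by 0.91 ± 0.061 (MoR 1.38), and UBE2T by 0.81 ± 0.073 (MoR 1.28). FANCD2 differed most between SW480 WT and DLD-1 WT cells among the clamp genes, at -1.60 ± 0.094.

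Other genes of the pathway were counted the same way. Of 47 further Fanconi anemia and recombination genes tested per line, 20 were higher (47.3% of all genes tested were) and 15 lower (27.5%) in HCT116 5-FU res cells, and 19 higher (68.1%) and 19 lower (18.1%) with OX resistance in that line. In SW480, 26 were higher (61.7%) and 9 lower (15.6%) for 5-FU res, and 23 higher (57.4%) and 6 lower (14.5%) for OX res. In DLD-1, 3 were higher (20.5%) and 25 lower (25.9%) for 5-FU res, and 29 higher (38.7%) and 2 lower (11.2%) for OX res. Median-of-ratios scaling gave 12 higher (35.6%) and 22 lower (40.3%) for 5-FU res and 5 higher (39.5%) and 32 lower (39.5%) for OX res in HCT116. It gave 9 higher (34.3%) and 21 lower (35.8%) for 5-FU res and 10 higher (32.7%) and 22 lower (36.1%) for OX res in SW480, and 6 higher (24.9%) and 26 lower (25.6%) for 5-FU res and 19 higher (24.3%) and 4 lower (22%) for OX res in DLD-1. ERCC4, a crosslink nuclease, had the largest rise of these in HCT116 OX res cells (1.55 ± 0.11, MoR 1.02). ATM, the kinase that senses breaks, had the largest rise in HCT116 5-FU res cells, with means of 19.1 TPM in 5-FU res and 2.78 TPM in WT cells (2.40 ± 0.13). STRA13, a histone-fold partner of FANCM, had the largest fall in HCT116 5-FU res (-1.15 ± 0.059) and SW480 OX res cells (-1.31 ± 0.095). RMI2, a partner of BLM, had the largest fall in DLD-1 5-FU res (-1.002 ± 0.056) and the largest rise in DLD-1 OX res cells (0.62 ± 0.056), where BRCC3 fell most (-0.33 ± 0.076). In SW480 5-FU res cells the largest rise was that of WDR48 (1.36 ± 0.10, MoR 0.87), a cofactor of the enzyme that removes ubiquitin from FANCD2. The largest fall there was that of SWI5 (-1.09 ± 0.066), a recombination factor. EME2, another partner of MUS81, rose most in SW480 OX res (1.70 ± 0.23) and DLD-1 5-FU res cells (0.52 ± 0.13). Of 11 end joining genes, which repair breaks without a template, 6 were higher and 3 lower in HCT116 5-FU res, 5 higher and 4 lower in HCT116 OX res, 7 higher and 2 lower in SW480 5-FU res, and 7 higher and 3 lower in SW480 OX res cells. In DLD-1, 3 were higher and 2 lower for 5-FU res and 8 higher and 0 lower for OX res, beside the same shares of all genes as above. By median-of-ratios scaling 4 were higher and 5 lower for 5-FU res and 3 higher and 7 lower for OX res in HCT116, 3 and 3 for 5-FU res and 5 and 4 for OX res in SW480, and 3 and 3 for 5-FU res and 3 and 0 for OX res in DLD-1.

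A list of 20 proliferation genes was read beside the members. Its median change was -0.54 for 5-FU res and -1.91 for OX res in HCT116, 0.18 for 5-FU res and 0.076 for OX res in SW480, and -0.60 for 5-FU res and 0.45 for OX res in DLD-1. All 20 were lower in HCT116 OX res and all 20 higher in DLD-1 OX res cells, and 18 were lower in DLD-1 5-FU res cells. Of the list, 16 genes fell and 3 rose in HCT116 5-FU res cells, with a median of -0.54, against 0.22 for the members, or -0.80 against -0.019 by median-of-ratios scaling. In the HCT116 OX res, DLD-1 OX res and DLD-1 5-FU res groups it gave 20 lower, 19 higher and 19 lower, and in SW480 it turned the medians to -0.32 for 5-FU res and -0.37 for OX res. Their summed level was 2130 to 2157 TPM in HCT116 5-FU res and 956.7 to 978.5 TPM in HCT116 OX res libraries, against 3171 to 3230 TPM in HCT116 WT libraries. In DLD-1 it was 1898 to 2106 TPM in 5-FU res and 4012 to 4207 TPM in OX res libraries, against 2940 to 3018 TPM in WT libraries. The part of proliferation in the members' changes was not tested. FANCF, RAD50, RAD51D, PALB2 and RAD52 were the 5 members higher in HCT116 OX res cells under both scalings. In that comparison, 68.1% of all genes tested were higher on TPM and 39.5% by median-of-ratios scaling. Members with a promoter window were also read by whether it held an E2F word, as a description and on TPM alone. In HCT116 OX res cells the 19 with an E2F word had a median of -0.81 (12 lower, 5 higher). The 10 without one had a median of 0.23 (1 lower, 4 higher). Of all genes tested there, 18.1% were lower and 68.1% higher, with a median of 0.60. In HCT116 5-FU res cells the medians were 0.23 with and 0.39 without a word. In SW480 they were 0.43 with and 0.37 without for 5-FU res, and 0.24 with and 0.54 without for OX res. In DLD-1 they were -0.53 with and -0.18 without for 5-FU res, and 0.40 with and 0.42 without for OX res. RAD54L, BLM and FANCD2 carried E2F words, as did FANCF, which rose in HCT116 OX res cells. UBE2T carried no E2F word, but a CHR word and CCAAT boxes.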

How the data were processed

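Libraries were made from total RNA with a stranded mRNA kit, converted for DNBSEQ sequencing and, per the study's methods and the submitters' processing notes, trimmed with Trimmomatic and mapped to hg19 with TopHat2 2.1.1, Bowtie2 2.2.8 and SAMtools 0.1.18. The deposited FPKM values (fragments per kilobase of gene and per fragments mapped), 1 table per library, were made by the authors with Cufflinks according to the methods and with Cuffdiff 2.2.1 according to the processing notes. The options were not given in the sources used here. FPKM was divided by each library's sum to give TPM. Genes with a TPM of at least 1 in at least 3 libraries of a line were tested on log2(TPM + 1) with limma 3.58.1 (R 4.3.3, trend) over the 9 libraries of a line, and WT lines and differences among lines over all 27 libraries. P-values were adjusted over all genes tested (Benjamini-Hochberg, threshold 0.05). The limma steps were tested on simulated data. Counts were not used, so depth enters only as a relative depth. This was the commonest ratio of FPKM values under 0.1 between HCT116 WT replicate 1 and each library. As a check, 82.3 to 88.0% of these ratios, divided by the commonest, were quotients of whole numbers up to 6 within 0.5%. Members and lists were chosen with earlier results of these data known. Of the 32 members, 25 are given per library: those with the largest called rise or fall in any of the 6 comparisons of resistant with WT cells, those called the same way in at least 5 of them, and those called higher in 1 line and lower in another for a drug with a passing test among lines. Alternatives were a pseudocount of 0.1, no filter, a mean TPM of at least 5, median-of-ratios scaling, FPKM as deposited, a replicate block and leaving out each library. Tables and figures used Python 3.11.15 with numpy 2.4.6, pandas 2.3.3 and matplotlib 3.10.9. Some results on other pathway genes are not reported here.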

Additional observations from a re-analysis of the deposited data

Results flagged for a closer look

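The test of the difference among lines passed for 29 members for 5-FU (85.3% of 15686 genes) and for 32 for OX (84.5%). For 5-FU, 20 members were called higher in 1 line and lower in another (27.9% of genes), 11 of them under both scalings (18.3%). For OX there were 14 (19.1%), 12 of them under both scalings (10.8%). For 5-FU, the members with opposite signs under both scalings, with limma adjusted p of the difference among lines, were FANCC (4e-10), FANCI (4.5e-11), FANCL (1.7e-07), BRCA1 (1.7e-09), BRCA2 (6.1e-08), BRIP1 (3e-09), PALB2 (2.9e-05), RAD51D (5.5e-10), XRCC2 (3.7e-06), FAN1 (0.00021) and BLM (2e-08). FANCL was lower in SW480 5-FU res cells, and the others were lower in DLD-1 5-FU res cells. For OX they were FANCA (8.8e-13), FANCD2 (2.6e-13), FANCG (9.8e-14), FANCI (1.5e-15), BRCA1 (4.5e-12), BRIP1 (4.6e-10), XRCC2 (6.4e-08), XRCC3 (1e-09), RAD54L (9.1e-16), BARD1 (5.5e-05), UBE2T (7e-15) and BLM (3.3e-13), all lower in HCT116 OX res and higher in DLD-1 OX res cells. The test among lines asks for any difference, not for opposite signs. Of the falls named for 5-FU, that of BLM lost its call on TPM in 8 of 9 fits without 1 library. FAN1 lost it in 6, PALB2 in DLD-1 in 3 and FANCL in 2, and the other falls kept theirs.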

How the results depend on the processing

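Of 26 counts of members, a pseudocount of 0.1, no filter and a mean TPM of at least 5 moved none by over 1.5 times. Median-of-ratios scaling moved 12 and FPKM as deposited 11. Under median-of-ratios scaling and FPKM as deposited, HCT116 5-FU res against WT cells gave 9 and 11 members higher and 11 and 11 lower, and HCT116 OX res cells 5 and 6 higher. SW480 5-FU res cells gave 7 and 7 higher and 9 and 7 lower, SW480 OX res cells 9 and 9 higher and 15 and 15 lower, and DLD-1 OX res cells 4 and 4 lower. HCT116 WT against DLD-1 WT cells gave 8 and 8 higher, and SW480 WT against DLD-1 WT cells 14 and 14 higher and 10 and 10 lower. HCT116 5-FU res against OX res cells gave 1 lower by median-of-ratios scaling. Log2 fold changes that reversed, by median-of-ratios scaling and on FPKM, were in SW480 5-FU res cells FANCG (-0.070 and -0.014), PALB2 (-0.10 and -0.047), RAD54L (-0.096 and -0.041), BARD1 (-0.064 and -0.013), UBE2T (-0.20 and -0.14), FAN1 (-0.091 and -0.038) and EME1 (-0.25 and -0.19), and FANCD2 by median-of-ratios scaling alone (-0.0041). In SW480 OX res cells they were BRCA1 (-0.055 and -0.040), RAD52 (-0.061 and -0.044), BARD1 (-0.051 and -0.035) and EME1 (-0.22 and -0.20). The cause was not tested. Of 27 same-numbered pairs of libraries, 6 correlated above 0.1 (-0.157 to 0.162). Differently numbered pairs were not read, so these values cannot decide whether replicate numbers paired the libraries. With a replicate block, HCT116 WT against SW480 WT cells had 4 members higher, in place of 8. Leaving out 1 library gave 1 to 2 members lower in SW480 5-FU res cells and 5 to 8 in SW480 OX res cells, and took the call from 46 of 945 refits of single named changes. The number of libraries per group, 3, limits the precision.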
